A study of Mus musculus with 18 samples.

Results

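The miRNA profile of resting adult liver was described in the vehicle controls of a 28-day benzo(a)pyrene (BaP) gavage study, which were the 3 of 18 arrays labeled with a dose of 0 mg/kg. No array of a dosed animal was used, and no dose was compared. The mice were male Muta™Mouse (strain 40.6), 25 weeks old per the labels, which carry a lacZ transgene for scoring mutations. They had received olive oil alone by gavage for 28 days, and liver was taken after a further 3 days without dosing. The labels describe 5 vehicle animals, of which 3 were analyzed here, with 1 array per animal. The animals are therefore a transgenic line given daily oil, and the arrays hold RNA of bulk liver tissue. Vehicle 1 was hybridized on one slide and vehicles 2 and 3 on another, so slide and animal cannot be told apart for vehicle 1.

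Each array carried 1712 probes for 576 miRNA names, and the 566 names with the mouse prefix were ranked. The level of a name was its log2 median spot signal: replicate spots were reduced to their median for each probe, the probes of a name were averaged, and no background was subtracted. A name was called present on an array where at least 1 of its probes had at least 0.5 of its spots well above background, by the flag of the scanner software. Labeling and hybridization differ in efficiency from probe to probe, so the order given here is an order of signal and not of RNA amount.

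MicroRNAs are short RNAs that guide Argonaute proteins to messenger RNAs, mainly through the seed, bases 2 to 8 of the mature strand. A hairpin precursor yields 2 possible strands, or arms, of which usually one is kept, and names with a star mark the arm that was thought to be the lesser. Liver is known for the dominance of miR-122, a hepatocyte miRNA that acts in cholesterol and lipid metabolism.

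Mature sequences of bright miRNAs are given first, because members of one family share a seed and differ at few bases. A mature sequence from RefSeq (GRCm38.p6) was matched to 59 of the 65 names present on 3 of 3 arrays. The names without one were miR-122 and miR-720, the 2 brightest on average, and miR-23b, miR-140, miR-151-5p and miR-709. The 59 carried 38 different seeds, of which 9 were shared by several names, and 30 names had a shared seed. In the lines that follow the seed is in capitals. All 9 members of the let-7 family on the array had the same seed, and 8 of them are shown.
let-7a: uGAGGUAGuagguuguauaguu
let-7f: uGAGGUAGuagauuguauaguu
let-7g: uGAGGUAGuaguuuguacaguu
let-7b: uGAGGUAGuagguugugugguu
let-7c: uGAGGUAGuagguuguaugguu
let-7d: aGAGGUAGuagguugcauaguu
let-7i: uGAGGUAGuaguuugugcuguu
let-7e: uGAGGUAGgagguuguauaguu

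Members of the miR-15/16 and miR-29 families, each present in full, are shown because they differed in signal. Of the 6 miR-15/16 names, miR-497, miR-195 and miR-322 are not shown.
miR-15a: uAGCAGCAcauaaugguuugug
miR-15b: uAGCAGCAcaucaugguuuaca
miR-16: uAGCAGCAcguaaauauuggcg
miR-29a: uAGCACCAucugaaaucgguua
miR-29c: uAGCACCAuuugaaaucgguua
miR-29b: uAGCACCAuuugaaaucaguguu

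Further bright names, and the liver marker miR-192 with its cluster partner miR-194, are shown because no other matched name present had the same seed. Of the 20 brightest names, those with a sequence that are not shown are miR-26b, miR-107 and miR-126-3p. miR-26b and miR-107 shared their seeds with miR-26a and miR-103, while miR-126-3p shared its seed with no other matched name present.
miR-22: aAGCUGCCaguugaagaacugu
miR-21: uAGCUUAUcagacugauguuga
miR-451: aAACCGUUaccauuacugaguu
miR-148a: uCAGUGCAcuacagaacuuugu
miR-130a: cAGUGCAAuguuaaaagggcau
miR-192: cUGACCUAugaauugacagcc
miR-194: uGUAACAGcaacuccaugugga

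A small part of the array gave signal. Of the 566 mouse names, 65 (11.5%) were present on 3 of 3 arrays, 6 on 2 arrays, 22 on 1 array and 473 on none. The software's own call of a detected gene was met on 3 of 3 arrays by 75 names (13.3%), among them all 65, and on none by 445. The count of names present per array was 88 on vehicle 1, 75 on vehicle 2 and 66 on vehicle 3. The median negative-control spot was 45, 65 and 67 intensity units on vehicles 1, 2 and 3, and the summed net signal of the mouse names was 43467, 46558 and 27200. Vehicle 3 therefore had the lowest total and the fewest names present. The log2 levels of the 566 names correlated between arrays with a Pearson coefficient of 0.993 for vehicles 2 and 3, which shared a slide. The coefficient was 0.986 for vehicles 1 and 2 and 0.977 for vehicles 1 and 3. These values are a description across names, most of them at background.

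**Figure D1:**
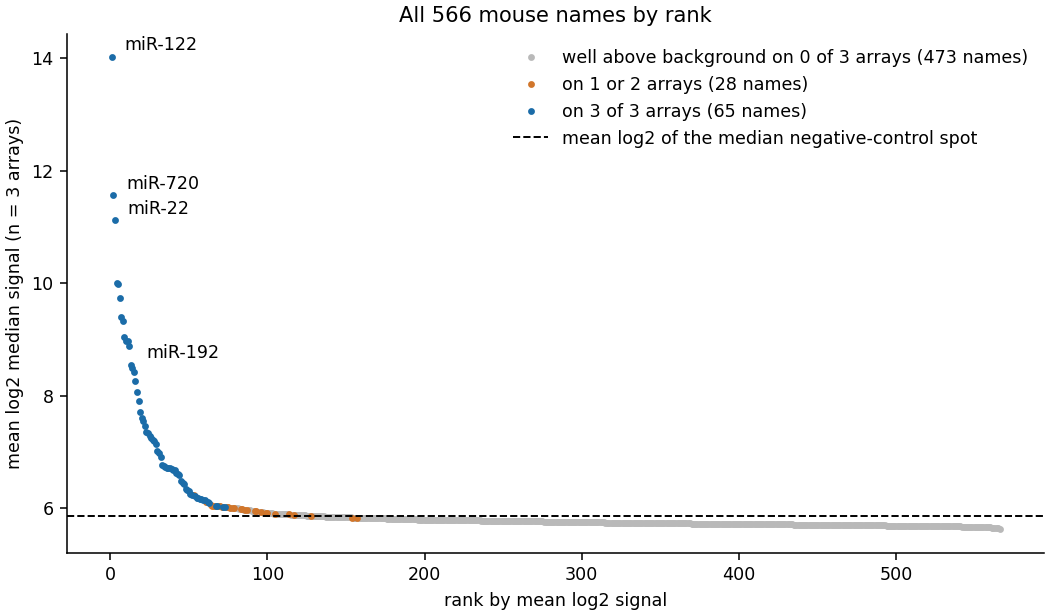
Mean log2 median signal over the 3 vehicle arrays (y axis) of each of the 566 mouse names by rank (x axis), colored by the number of arrays on which the name was well above background; the dashed line is the mean log2 of the median negative-control spot. The 65 names present on 3 of 3 arrays form the steep left end of the curve and the 473 names present on none lie along the negative controls.

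The brightest name on every array was miR-122. Its log2 median signal was 14.15, 14.33 and 13.57 on vehicles 1, 2 and 3. The mean was 14.02 ± 0.40 (SD, n = 3), and no spot of the arrays was saturated. It exceeded the next name, miR-720, by 5.49-fold on average, and was higher than it on 3 of 3 arrays. miR-720 had log2 signals of 11.78, 11.71 and 11.19; it was later recognized as a fragment of a transfer RNA and is not a canonical miRNA. miR-22, a broadly expressed miRNA, followed at 11.62, 11.27 and 10.46. These were the first 3 names on average, and vehicle 3 was the lowest array for each of them.

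The order of neighbors was examined by within-array differences. A pair of neighbors was called apart where the upper name was higher on 3 of 3 arrays and the mean difference was over 2 SD of the within-array differences. No p-value is given, since an exact sign-flip test over 3 arrays cannot go below 0.25. Of the 64 neighbor pairs among the 65 names, 3 were apart, namely miR-122 over miR-720, miR-22 over let-7a (2.16-fold) and let-7d over miR-130a (1.13-fold). The remaining pairs, miR-720 and miR-22 (1.36-fold) among them, were not apart by this rule, so the ranks below miR-122 are approximate. Neighbors were defined by sorting on the means of the same 3 arrays, so every mean difference is positive by construction. How many of the 64 pairs would meet the rule without a true difference was not tested.

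The names in positions 4 to 10 were let-7a, let-7f, miR-21, miR-451, miR-15a, let-7g and miR-148a. let-7a had log2 signals of 10.32, 10.18 and 9.53, and let-7f had 10.65, 9.99 and 9.33. miR-21, which is induced in many injured or proliferating tissues, had 10.79, 9.49 and 8.95. Vehicle 1 was the highest array for these 3 names, and by the widest margin for miR-21. miR-451 and miR-15a had means of 9.41 ± 0.61 and 9.33 ± 0.39 (SD, n = 3). miR-148a, a miRNA of differentiated hepatocytes, was steadier, at 9.16, 9.20 and 8.59.

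Positions 11 to 20 were miR-29a, let-7b, miR-192, let-7c, miR-29c, let-7d, miR-130a, miR-26b, miR-126-3p and miR-107, with mean log2 signals from 8.98 down to 7.61. miR-192, the second liver marker, was at 8.97, 8.61 and 8.08, in position 13. All 20 names were lowest on vehicle 3, while 11 were highest on vehicle 1 and 9 on vehicle 2. Of the 20 brightest names of each array, 19 were shared by all arrays and 21 occurred in any. Once the median of the present names had been taken off each array, the names with the largest SD over arrays were miR-21 (0.89), miR-26b (0.63) and let-7f (0.57), and all were highest on vehicle 1.

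The other 45 present names were dimmer. Positions 21 to 30, from 7.55 down to 7.02 in mean log2 signal, were miR-29b, miR-23a, let-7i, miR-24, miR-92a, miR-101a, miR-23b, miR-193, miR-15b and miR-19b. Positions 31 to 45, from 6.99 down to 6.49, were miR-30a, miR-709, miR-365, miR-151-5p, miR-101b, miR-99a, miR-26a, miR-1224, miR-194, miR-10a, miR-199a-3p, miR-27a, miR-20a, let-7e and miR-106b. The last 20, from 6.46 down to 6.03, were miR-144, miR-497, miR-16, miR-103, miR-98, miR-195, miR-140, miR-27b, miR-322, miR-652, miR-28, miR-345-5p, miR-223, miR-7a, miR-338-3p, miR-125b-5p, miR-139-5p, miR-25, miR-33 and miR-100. The last 45 names together held less of the signal than miR-22 alone, since the 20 brightest and all 65 held 93.0% and 99.2%.

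**Figure D2:**
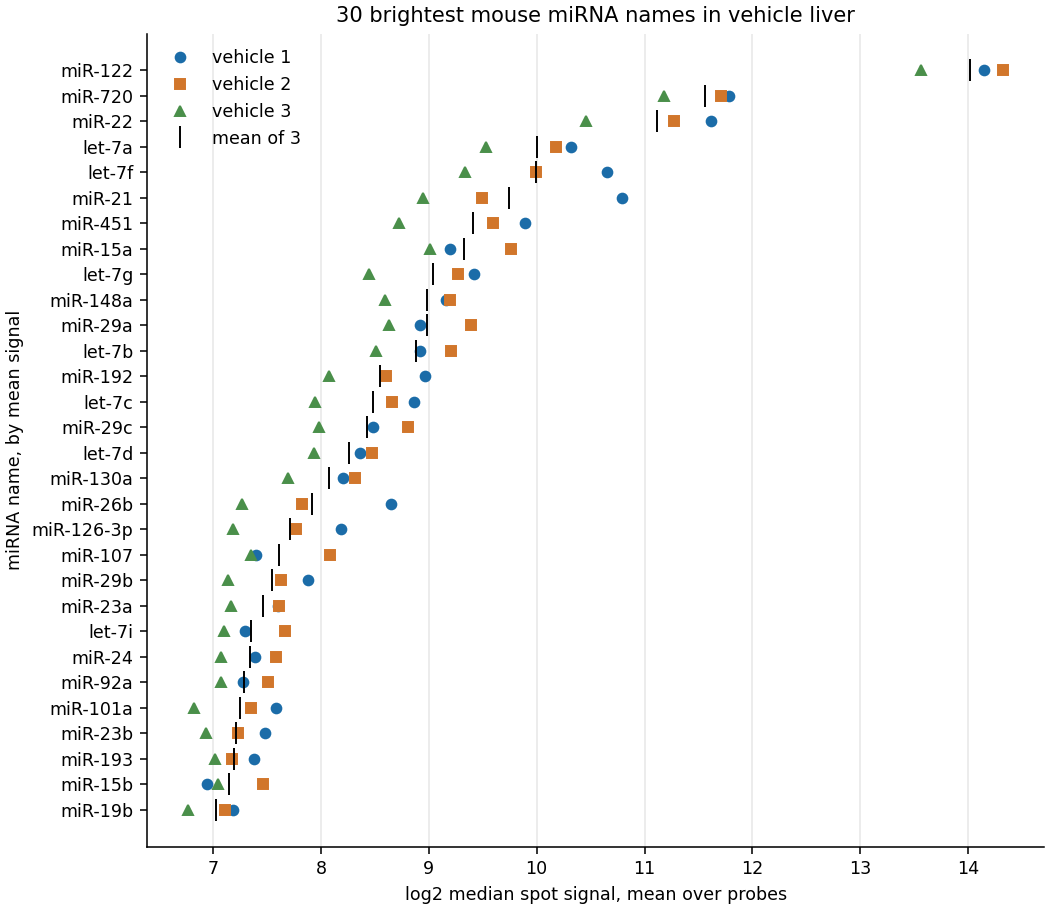
Log2 median spot signal, averaged over the probes of a name (x axis), of the 30 brightest mouse names (y axis), with a symbol per vehicle array and a bar at the mean of 3. miR-122 stands at 14.02 on average, and each of the first 20 names is lowest on vehicle 3.

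Shares of the total signal were taken on the linear scale, after the median negative control of the array had been subtracted and negative results set to 0. miR-122 gave 43.7%, 49.6% and 50.2% of the net mouse signal on vehicles 1, 2 and 3, a mean of 47.8% ± 3.59 (SD, n = 3). Without the subtraction of background its share was 26.2% and that of the 10 brightest names 47.2%. miR-720 gave 11.5% ± 1.08 and miR-22 gave 7.58% ± 0.48. Thus 1 or 2 names made up the first 50% of the signal on each array. The 10 brightest names held 84.3% ± 1.64, the 20 brightest 93.0% ± 1.35, and the 65 names present 99.2% ± 0.55. By mean share, 14 names reached 1%, and 21 of the 65 present names were under 0.1%.

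The order by share was not the order by mean log2 signal, because one bright probe raises a linear sum more than a mean of logs. miR-21 had a share of 6.47%, 3.51% and 3.59%, and its mean of 4.52% ± 1.68 was above the 3.82% ± 0.34 of let-7f and the 2.98% ± 0.06 of let-7a. The 2 probes of miR-21 had mean log2 signals of 11.64 and 7.85, the widest gap among the present names at 3.79. The next widest were 3.00 for miR-29b and 2.77 for miR-192. The median gap between the brightest and dimmest probe was 0.78 over the 65 names, and 32 of them had every probe present on 3 of 3 arrays. The software's total gene signal, which sums over the probes of a name, moved miR-365 from position 33 to 39, miR-1224 from 38 to 33 and miR-29b from 21 to 17 among the 65 names, and no name moved further than miR-365.

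**Figure D3:**
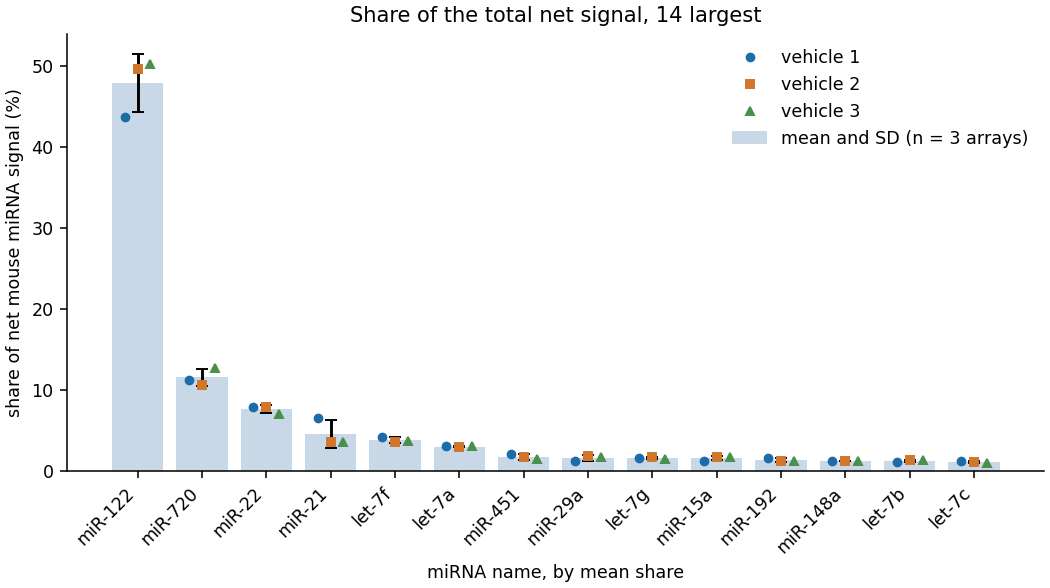
Share of the net mouse miRNA signal in percent (y axis) of the 14 names with a mean share of at least 1% (x axis); bars are the mean, error bars the SD over 3 arrays, and symbols the single arrays. miR-122 holds 47.8% and miR-21 has its highest share on vehicle 1.

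The let-7 family, which restrains growth and is abundant in differentiated tissue, was present in full. Its 9 members had mean log2 signals from 10.01 for let-7a to 6.31 for miR-98. Together they gave 12.2%, 11.9% and 11.6% of the net signal on vehicles 1, 2 and 3, a mean of 11.9% ± 0.28 (SD, n = 3). Of the signal that was neither miR-122 nor miR-720 they held 29.4% ± 2.20. The members differ at 1 to 6 positions in the 36 pairs compared, and 4 pairs differ at 1 position. In 2 of these, the difference in mean log2 signal was 0.01 between let-7a and let-7f and 0.39 between let-7b and let-7c. In the other two it was 1.52 between let-7a and let-7c and 3.42 between let-7a and let-7e. Near-identical names thus had both like and unlike signals, and cross-hybridization between them was not tested.

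Of the 21 families listed, 8 were present with every member, 10 in part and 3 with no member on 3 of 3 arrays. The families were chosen with earlier results of these data known. Some complete families, such as miR-26 and miR-27, hold only 2 names. The counts were not tested against the 11.5% of all mouse names present. The miR-29 family, known for repressing collagen genes, gave 2.97% ± 0.25 of the signal with miR-29a at 8.98, miR-29c at 8.42 and miR-29b at 7.55. The miR-15/16 family, which acts on cell cycle genes, gave 2.01% ± 0.32, with miR-15a at 9.33, miR-15b at 7.15 and miR-16 at 6.35. The miR-26, miR-101, miR-23, miR-27 and miR-103/miR-107 families were complete at lower signal, with miR-26b at 7.91, miR-101a at 7.25, miR-23a at 7.46, miR-27a at 6.64 and miR-107 at 7.61.

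In most of the families present in part, 1 member met the presence rule on 3 of 3 arrays. Of the 5 members of the miR-30 family, miR-30a was present on 3 of 3 arrays at 6.95, 7.21 and 6.80, while miR-30e was present on 2 arrays, miR-30c and miR-30d on 1 each and miR-30b on none. In the miR-130/miR-301 family miR-130a was at 8.07 and the other 3 names were not present on any array. The families without a member present on 3 of 3 arrays were miR-34/miR-449, miR-181 and miR-200/miR-429. miR-34a, a transcriptional target of p53, was the brightest of the 6 in its family at 5.80, 6.18 and 6.13; it was present on 2 arrays and detected by the software on 3.

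Some of the present names lie near each other in the genome. Of the 73 loci of present names in RefSeq (chromosome 18 left out), 35 had a second present name within 10000 bases on its strand. These formed 16 clusters, and the share was not set against that of all miRNA loci. Bright names such as miR-22, miR-21, miR-148a, miR-130a and miR-26b had no present name so near. let-7a-1, let-7f-1 and let-7d lie at chr13:48538239-48538260, chr13:48537889-48537910 and chr13:48536078-48536099 on the minus strand of GRCm38.p6, and their names had mean log2 signals of 10.01, 9.99 and 8.26. The miR-192 locus at chr19:6264857-6264877 on the plus strand has miR-194-2 beside it at chr19:6264658-6264679, and miR-194 had 6.60, 6.88 and 6.62. miR-451 and miR-144 lie at chr11:78073186-78073207 and chr11:78073047-78073066 on the plus strand. Neighbors could differ in signal, as miR-144 had a mean of 6.46 against 9.41 for miR-451 and miR-16 had 6.35 against 9.33 for miR-15a. Names with copies at several loci, such as miR-16, miR-194 and miR-29b, give 1 signal for all copies.

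Of 26 clusters listed by their precursor transcripts, 11 had every member present on 3 of 3 arrays, 7 some and 8 none. Within the 8, miR-20b, miR-30d and miR-221 were present on 1 array each. Names in more than 1 cluster, such as miR-24, miR-16 and miR-29b, counted in each. The counts were not tested against the 11.5% of all mouse names present. The let-7e cluster had let-7e at 6.59 while miR-99b and miR-125a-5p were present on 0 of 3 arrays. In the miR-17/92 cluster miR-92a, miR-19b and miR-20a were present, at 7.28, 7.02 and 6.60, miR-19a was present on 1 array, and miR-17 and miR-18a on none. The miR-143/miR-145 and miR-96/miR-182/miR-183 clusters had no member present on any array.

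No hairpin had both arms present on 3 of 3 arrays. The array held 174 pairs of arms, of which 40 had 1 arm present on 3 of 3 arrays, 134 had neither and 0 had both. Of 115 star names, 0 were present on 3 of 3 arrays and 6 on 1 or 2. Of all mouse names 11.5% were present on 3 of 3 arrays, a share at which few pairs would have both arms. The counts were not tested against that share. The pair with the brightest lesser arm was miR-22, whose main arm had a mean log2 signal of 11.12 and whose star arm had 6.02, 6.22 and 6.09 and was present on 2 arrays. With the software's call, both arms were detected on 3 of 3 arrays in 2 pairs, let-7b and let-7f, where the star arms had means of 6.01 and 6.00.

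Marker lists of cell types were read against the 11.5% of all mouse names present. In bulk tissue fewer cells of a type and less RNA per cell cannot be told apart. The 3 markers given for this liver profile, miR-122, let-7a and miR-192, were all present. Of the hepatocyte list 4 of 5 names were present, miR-122, miR-148a, miR-192 and miR-194, and they gave 50.5% ± 3.36 of the signal with 46.6%, 52.1% and 52.7% on vehicles 1, 2 and 3. The exception was miR-215, which shares a family with miR-192 and was at 5.45, 5.88 and 5.92, below the median negative control of each array.

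Blood and vessel markers followed. The erythroid list had 2 of 3 names present, with miR-451 at 9.89, 9.60 and 8.72 and miR-144 at 6.75, 6.38 and 6.24, and gave 2.27%, 1.68% and 1.45% of the signal. With every probe of a name required, miR-144 was no longer present on 3 of 3 arrays and 1 of the 3 erythroid names was. Both names were highest on vehicle 1 and lowest on vehicle 3, which was also the lowest array for all of the 20 brightest names. With the median of the present names taken off each array, miR-451 was at 2.95, 2.48 and 2.01. On that scale miR-144 was at -0.19, -0.74 and -0.47, lowest on vehicle 2. The third erythroid name, miR-486, was present on no array. Of the endothelial pair, miR-126-3p was present at 8.18, 7.77 and 7.19 and miR-126-5p was not. Among 5 myeloid and macrophage names, miR-223, a granulocyte and monocyte miRNA, was present at 6.01, 6.24 and 6.20. It was not present on 3 of 3 arrays where every probe of a name was required. Its net signal was 20.25, 11.125 and 6.625 units on vehicles 1, 2 and 3, highest on vehicle 1. miR-142-3p, common to blood cells, was present on vehicle 1 alone, at 6.66 against 6.02 and 6.05, and the summed net signal of the list was 89.1 units on vehicle 1 against 13.5 and 8.12. Of the 8 mesenchymal names on the array, 1 (12.5%, near the share of all names) was present, miR-199a-3p at 6.59, 6.86 and 6.57.

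Of 13 cell type lists, 7 had no member present on 3 of 3 arrays, 75 names in all. These were the lymphocyte, biliary and other epithelium, striated muscle, neuron and brain, sensory organ, embryonic stem cell and male germ cell lists. The first 3 of these and the sensory organ list hold 3 to 7 names each, too few for 0 present to stand apart from the 11.5% of all names. The neuron and brain, embryonic stem cell and male germ cell lists hold 13, 19 and 23 names. Whether 0 present stands apart from that share in them was not tested. Their brightest members were miR-342-3p (5.82), miR-200a (5.85), miR-133b (5.82), miR-219 (5.89), miR-96 (5.97), miR-290-3p (6.02) and miR-471 (5.79) in mean log2 signal. Of these, miR-290-3p was present on 1 array and the rest on none. miR-7a, an islet and brain miRNA, was the 1 name present of the 3 in the pancreatic islet list, at 5.99, 6.25 and 6.19, and it was not present where every probe was required, while miR-375 was at 5.37, 5.85 and 5.87.

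**Figure D4:**
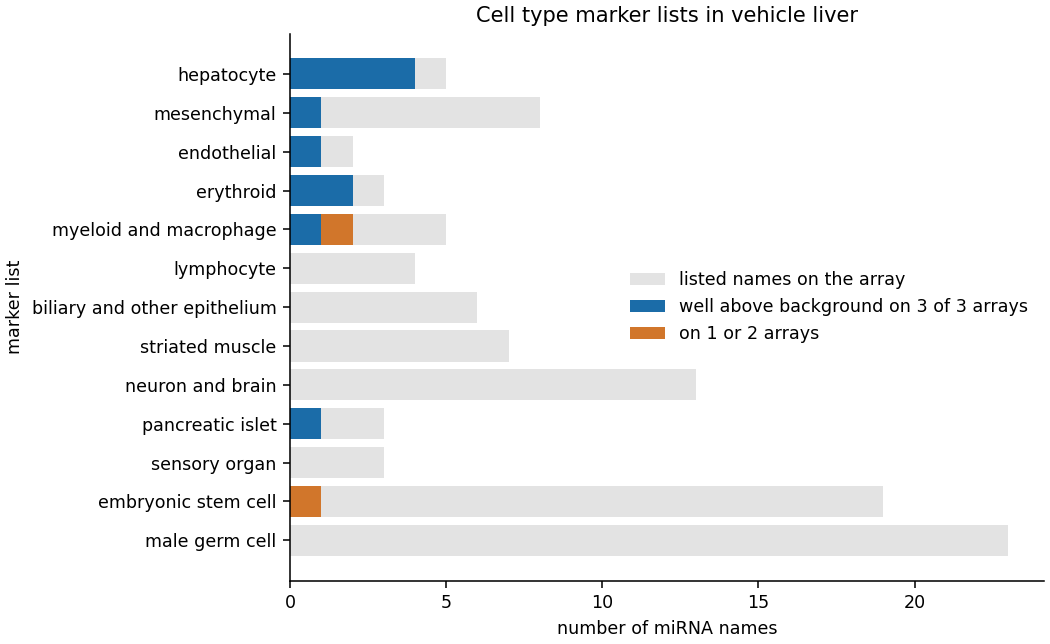
Number of miRNA names (x axis) in each of 13 cell type marker lists (y axis); gray is all listed names on the array, blue those well above background on 3 of 3 vehicle arrays and orange those on 1 or 2. The hepatocyte list has 4 of 5 names present, and 7 lists have none.

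Imprinted clusters that are expressed in the fetus and in the brain gave little signal, again read against the 11.5% of all names. Of the 70 names of the Dlk1-Dio3 cluster, 0 were present on 3 of 3 arrays, miR-494 and miR-377 were present on 1 each, and the software detected 64 on no array. The 4 names of the H19 and Igf2 loci were not present on any array, with miR-483* brightest at 5.88 on average, a list too short to stand apart from that share. Not present means not well above background on these arrays, and 331 names had a net signal of 0 on all of them.

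The limit of presence lay close to the negative controls. Their median was 5.49, 6.02 and 6.07 in log2 on vehicles 1, 2 and 3, and the levels include this background. For miR-34a, miR-223, miR-7a and miR-33, the log2 level was lowest on vehicle 1 while the net signal was highest there. Levels near the limit therefore do not rank the arrays. The dimmest names present on 3 of 3 arrays were miR-100 (6.03), miR-33 (6.03) and miR-25 (6.04) in mean log2 signal. Just outside, on 2 of 3 arrays, were miR-22* (6.11), miR-34a (6.04) and miR-331-3p (6.04), so the ranges met. The present names reached down to rank 73, with 8 names that were not present on 3 of 3 arrays ranked among them.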

How the data were processed

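RNA containing the small fraction was labeled by the authors with cyanine 3 and hybridized to 1-color Agilent mouse miRNA arrays. The deposited scanner files hold spot intensity values on a linear scale, read out by Agilent Feature Extraction (10.7.3.1, from the submitters' processing notes) and not normalized between arrays. The authors also deposited 1 value per name and array on a log2 scale, made by cyclic lowess without background subtraction per their methods. Columns of the 3 vehicle arrays had medians of 5.74, 5.75 and 5.75 and correlated at 0.999, 0.999 and 0.996 with the log2 median signal over 564 names, and any centring is unknown. That table served as an alternative only.

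From the scanner files, spots with an outlier flag (2.31% to 3.02%) and control spots were left out. Spots of a probe were summarized by their median and probes of a name by the mean of log2 values. A name counted as present by the rule in the report, with gIsGeneDetected as the second call. The 672 negative-control spots per array set the background of the shares. 2 names (6 probes) had different names on the slides and were matched by probe. The scripts were tested on simulated data.

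Named miRNAs were the 3 markers, the 20 brightest, up to 4 present members of each list (the brightest where none was present), the miR-34/miR-449 family, arms, the 3 names on each side of the presence limit, and the 3 names with the largest rank shift, SD or probe gap. Other names (miR-215, miR-486, miR-126-5p, miR-142-3p, miR-375, and further family and cluster members) were added to complete lists or after their values were seen. Members and lists were chosen with earlier results of these data known. No test of a difference was run. The number of arrays limits the precision, and the replicates are separate animals on different slides (vehicle 1 against vehicles 2 and 3). The study's methods describe arrays for 5 mice per group and the removal of 2 arrays after a quality check, without naming their groups. The 18 arrays of the series hold 5 arrays at each BaP dose and 3 vehicle arrays. The arrays missing from the series are therefore vehicle arrays. Python 3.11.15, numpy 2.4.6, pandas 2.3.3, R 4.3.3 and limma 3.58.1 were used.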

Additional observations from a re-analysis of the deposited data

Results flagged for a closer look

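Besides the mouse names, the array carried 10 names of a murine herpesvirus, which the profile does not use. The software detected 9 of them on no array and 1, mghv-miR-M1-2, on 3 of 3. Its brightest probe was at 1.24, 1.13 and 1.18 times the median negative control of vehicles 1, 2 and 3. In intensity units it was at 56, 73.5 and 79, against a 99th percentile of the negative-control spots of 50.5, 84.1 and 87.9, so it was above that percentile on vehicle 1 only. By the presence rule used for mouse names it was present on vehicle 1, with 1 of its 4 probes, and on vehicle 3, with 2, but not on vehicle 2. It was flagged as a signal outside the mouse names, and its source was not tested.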

How the results depend on the processing

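Leaving out 1 array at a time, the count of names present ran from 65 to 71 and that of names detected from 76 to 91. The share of miR-122 ran from 46.6% to 49.9%, that of the 10 brightest names from 83.5% to 85.1% and that of let-7 from 11.8% to 12.0%. Requiring every probe of a name lowered the 65 present names to 32. With the brightest probe per name, miR-122 held 43.9% and let-7 12.6%, and miR-192 moved from position 13 to 9 and let-7a from 4 to 6. Cyclic loess gave let-7 11.6%, and the authors' table gave the 10 brightest names 79.9%. Without background subtraction the shares of miR-122, the 10 brightest names and let-7 fell to 26.2%, 47.2% and 7.34%, since background then entered the total. The software's call raised the pairs with both arms from 0 to 2. Between 18 and 20 of the 20 brightest names stayed in the first 20 under every alternative run. With every probe required, the erythroid, myeloid and islet lists had 1, 0 and 0 names present. No paired analysis was possible because the labels carry no replicate numbers and a single group was used. Signals near the negative controls, with 3 arrays, do not rank the dimmer names.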

Other observations

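Intronic miRNAs of metabolic host genes were at moderate to low signal. miR-107 and miR-103, which lie in introns of pantothenate kinase genes, had mean log2 signals of 7.61 and 6.32 and differ from each other at 1 of 23 positions. miR-33, in an intron of the sterol regulator Srebf2, was present on 3 of 3 arrays at 5.86, 6.13 and 6.10, near the limit of presence. miR-378, in an intron of Ppargc1b, was present on 1 array, at 5.71, 6.12 and 6.09.

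The 59 present names with a RefSeq sequence were 19 to 23 bases long. A first base of U was found in 38 of them (64.4%), against 40.9% of the 1679 mature sequences in the RefSeq table. That table left out chromosome 18 and was not limited to names on the array. The median GC content was 42.1% for the present names and 52.2% for the table.

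Of the 59 present names with a sequence, 42 had a share on vehicle 1 above the log-scale mean of vehicles 2 and 3. miR-122 had no matched sequence and was not among the 59. All names but miR-122 held 56.3%, 50.4% and 49.8% of the net signal on vehicles 1, 2 and 3. Shares are parts of a common total, so a lower share of miR-122 raises those of the other names. The count of 42 was not adjusted for this. Names whose share was highest on vehicle 1 relative to the other arrays included the erythroid miR-144, with 0.146%, 0.0397% and 0.0322% on vehicles 1, 2 and 3. The net signal of miR-144 was 63.5, 18.5 and 8.75 units, against median negative controls of 45, 65 and 67. miR-26b had 0.860%, 0.366% and 0.340%, and miR-101b had 0.267%, 0.105% and 0.0864%. Vehicle 1 alone lay on its slide, so animal and slide cannot be told apart for these values.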
